A study of Mus musculus with 6 samples.

Results

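Mitotic cell cycle genes encode the proteins that take a cell from G2 through division, and 41 of them were described here in cancer cells and breast cancer stem cells (BCSCs) sorted from mouse mammary tumors. The genes were chosen by symbol from a list, and all 41 were among the 14889 genes with a symbol in the expression table. The tumors arose in FVBN mice that carry the MMTV-Polyoma Virus Middle-T Antigen transgene (MMTV-PyMT), in which the mouse mammary tumor virus promoter drives the viral oncogene in mammary epithelium. Cells of 2 dissociated tumors were stained for ALDH, CD29 and CD61 and sorted into 3 populations, so that all 6 libraries carry the same oncogene and strain. P0 were the remaining bulk cancer cells (non-CSC), P1 were CD29hi CD61+ BCSCs and P2 were ALDH+ BCSCs, with 1 library of each population from each tumor. No age or treatment is given in the labels, and neither is whether both tumors grew in the same mouse. The comparisons asked whether the mitotic genes were expressed at other levels in either BCSC population than in the bulk cells of the same tumor.

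Progress through mitosis is driven by cyclin-dependent kinase 1 bound to the A- and B-type cyclins, together with the Polo-like and Aurora kinases. The spindle checkpoint holds cells in metaphase until every kinetochore is attached, and the anaphase-promoting complex (APC/C) then marks cyclin B and securin for destruction. Most of these genes are transcribed late in the cell cycle and are nearly silent in resting cells, so that their mRNA in bulk tissue is widely read as a sign of dividing cells. In the mammary gland, dividing cells belong to both the luminal and the basal layer.

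The 6 libraries held between 19037071 and 48008802 reads in genes. The libraries of P0 and P2 from tumor 1 had no reads for 3290 and 3904 genes, P1 of tumor 1 for 1947, and the 3 libraries of tumor 2 for 360 to 759. Luminal markers were abundant throughout, with *Krt8*, a luminal keratin, at 3050 to 5193 RPKM (reads per gene, scaled for its length and the library's total), and the summed level of 8 luminal markers was 10135 to 18261 RPKM. The summed level of 9 basal and myoepithelial markers was 301 RPKM in P0, 909 in P1 and 666 in P2 of tumor 1, and 347, 964 and 442 RPKM in tumor 2. *Krt14* was the largest part of it, at 224, 456 and 471 RPKM in tumor 1 and at 245, 675 and 339 RPKM in tumor 2. *Krt5* was at 3.23, 128 and 4.67 RPKM and at 8.87, 48.8 and 3.52 RPKM. Of the 7 markers tested, 7 were higher in P1 than in P0 of both tumors (29.2% of tested genes). In P2, 3 were higher (24.5%) and 1 was lower (22.9%) in both. That of 8 fibroblast markers was 1.68, 8.10 and 70.4 RPKM in tumor 1, and 6.33, 86.2 and 417 RPKM in tumor 2. The 2 lymphocyte markers in the table were without reads in the libraries of tumor 1 and summed to at most 2.23 RPKM in tumor 2, the 3 endothelial markers to at most 1.29 and the 5 macrophage markers to between 3.19 and 25.3 RPKM.

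The promoters of the mitotic genes shared sequence elements that the choice of genes did not use. The cell cycle genes homology region (CHR), whose core is TTTGAA, is bound by the MuvB protein complex, with repressors in resting cells and with the activators B-MYB and FOXM1 in dividing cells, and CCAAT boxes are bound by the factor NF-Y. RefSeq promoter windows (mouse build GRCm38.p6, 250 bases before to 50 after the gene start) were at hand for 35 of the 41 genes, and both motifs were searched on both strands. The 120 bases before the start are shown for 8 genes, chosen because their expression is described below and because they span promoters with both elements, with CCAAT boxes alone and, in this stretch, with the CHR alone. The letters run 5′ to 3′ on the strand of the gene, and capitals mark the core TTTGAA, the box CCAAT and, for matches on the other strand, their reverse complements.
Cdk1: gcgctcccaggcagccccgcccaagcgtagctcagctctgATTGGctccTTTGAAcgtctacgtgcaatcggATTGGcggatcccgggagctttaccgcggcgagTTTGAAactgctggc
Ccnb1: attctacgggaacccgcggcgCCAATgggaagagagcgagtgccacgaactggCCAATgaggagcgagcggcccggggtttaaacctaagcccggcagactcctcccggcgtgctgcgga
Ube2c: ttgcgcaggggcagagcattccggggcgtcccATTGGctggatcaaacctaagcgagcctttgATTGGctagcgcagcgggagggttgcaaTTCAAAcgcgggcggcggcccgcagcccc
Cdc20: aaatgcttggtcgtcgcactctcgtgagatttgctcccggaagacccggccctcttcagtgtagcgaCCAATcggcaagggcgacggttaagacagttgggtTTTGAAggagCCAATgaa
Top2a: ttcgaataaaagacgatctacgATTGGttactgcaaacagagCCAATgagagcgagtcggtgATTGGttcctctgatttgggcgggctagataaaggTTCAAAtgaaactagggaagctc
Kif11: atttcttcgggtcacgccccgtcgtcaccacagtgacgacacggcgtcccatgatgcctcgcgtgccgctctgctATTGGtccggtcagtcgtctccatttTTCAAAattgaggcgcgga
Mki67: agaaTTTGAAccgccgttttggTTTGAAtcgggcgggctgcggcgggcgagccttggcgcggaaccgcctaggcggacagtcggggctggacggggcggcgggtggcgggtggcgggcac
Bub3: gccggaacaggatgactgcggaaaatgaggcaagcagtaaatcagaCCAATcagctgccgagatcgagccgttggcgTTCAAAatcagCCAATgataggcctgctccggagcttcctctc
These stretches lie on the plus strand at chr2:164769809-164769928 for *Ube2c*, chr19:37376262-37376381 for *Kif11* and chr7:131560250-131560369 for *Bub3*, and on the minus strand at chr10:69352913-69353032 for *Cdk1*, chr13:100786487-100786606 for *Ccnb1*, chr4:118437344-118437463 for *Cdc20*, chr11:99024190-99024309 for *Top2a* and chr7:135716380-135716499 for *Mki67*. *Cdk1*, *Ube2c*, *Cdc20*, *Top2a*, *Kif11* and *Bub3* held both elements, *Ccnb1* held 2 CCAAT boxes and no CHR core, and *Mki67* held 2 CHR cores and no CCAAT box within this stretch.

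In the full window, 28 of the 35 mitotic genes (80.0%) held a CHR core, against 20.2% of the 27025 genes in the promoter table and 18.5% of its 17491 protein-coding genes. CCAAT boxes were present in 28 of the 35 (80.0%, against 41.1% of all genes), and 19 genes held at least 2 of them. Both elements occurred together in 25 of the 35 (71.4%, against 8.97%). The CHR cores lay close to the start: 25 genes (71.4%) had one between 50 bases before and 50 bases after it, against 5.72% of all genes. Counted from the start, the nearest core of the 28 genes had a median position of 5.5 and ranged from -123 to 41, and it was on the strand of the gene in 19 of the 28. A single pair of neighbouring CHR and CCAAT motifs overlapped. *Ccnb1*, *Bub1*, *Mad2l1*, *Birc5*, *Cenpe*, *Nuf2* and *Nusap1* had no TTTGAA in the window, which says only that these letters are not in it.

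**Figure D1:**
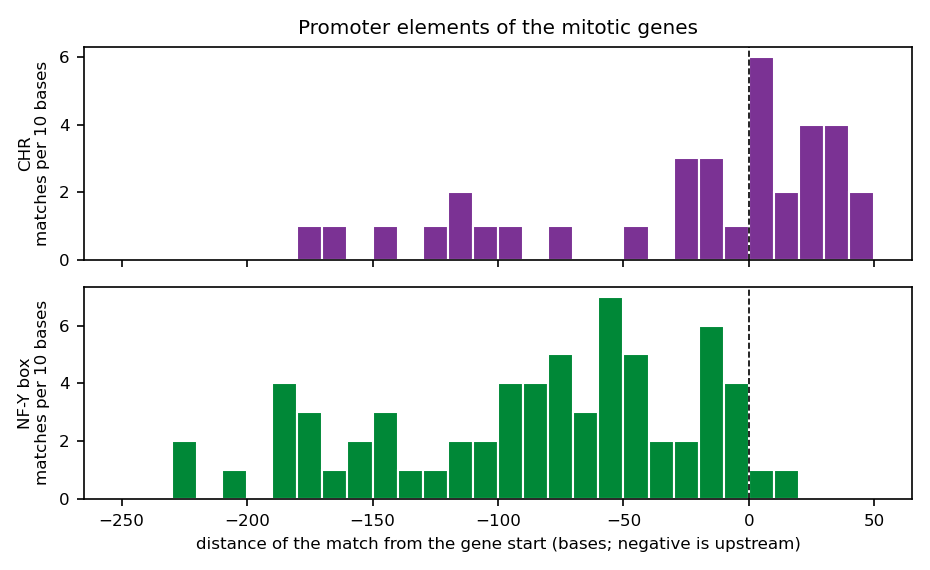
Matches of the CHR core (top) and of the CCAAT box, named NF-Y box (bottom), in the promoter windows of 35 mitotic genes, counted per 10 bases of distance from the gene start (x axis, bases; the dashed line is the start). CHR cores crowd around the start, where 25 of the 35 genes have one within 50 bases, while CCAAT boxes lie mostly upstream.

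Genes of neighbouring processes differed in these elements. Of 36 genes of DNA replication and S phase with a promoter entry, 4 (11.1%) held a CHR core and 24 (66.7%) a CCAAT box, and none of 6 G1 cyclins and kinases held a CHR core. Among 62 other mitotic genes outside the 41, 32 (51.6%) held one, and among 14 transcription regulators of mitotic genes 6 (42.9%). Among 14 genes listed for the APC/C, mostly subunits that are present throughout the cell cycle, 2 (14.3%) held one.

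**Figure D2:**
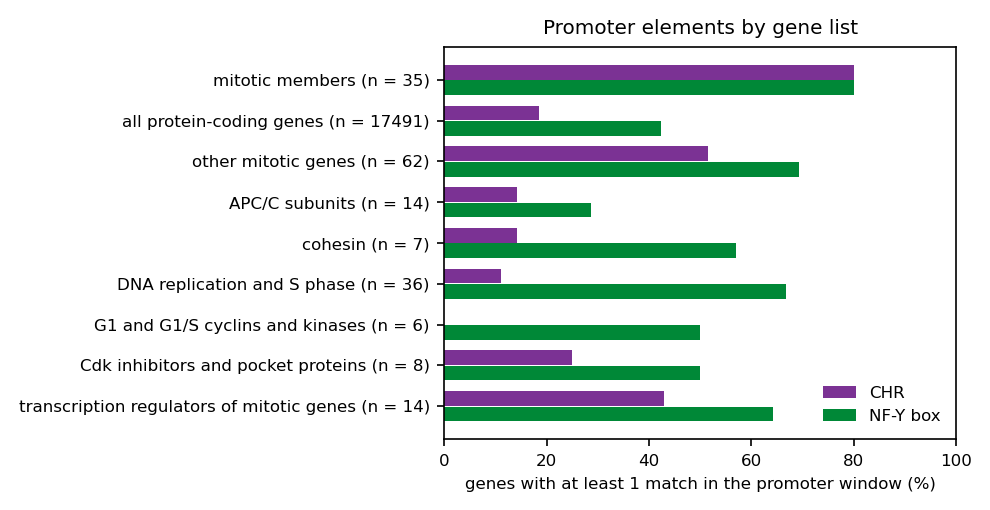
Share of genes (x axis, percent) with at least 1 CHR core (purple) or CCAAT box (NF-Y box, green) in the promoter window, for each gene list, with the number of genes that had a promoter entry. The mitotic genes have the longest purple bar at 80.0%, and the 6 G1 cyclins and kinases have none.

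Expression of the mitotic genes was modest in every library. The median of the 41 genes was 2.78 RPKM in P0, 7.91 in P1 and 4.07 in P2 of tumor 1, and 3.43, 4.47 and 5.97 RPKM in tumor 2. The median of the 12512 genes tested was 7.95, 9.39 and 8.10 RPKM in tumor 1, and 8.62, 9.15 and 9.14 RPKM in tumor 2. Their summed level was 196 RPKM in P0, 454 in P1 and 274 in P2 of tumor 1, and 240, 269 and 301 RPKM in tumor 2. Bulk cells therefore had the lowest sum in both tumors, but they also had the lowest median of all tested genes there. The population with the highest sum was P1 in tumor 1 and P2 in tumor 2. Fewer dividing cells and less mitotic mRNA per dividing cell cannot be told apart in such sorted bulk RNA. At least 5 RPKM was reached by 13 genes in P0 of either tumor, by 27 and 19 in P1 and by 20 and 24 in P2.

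**Figure D3:**
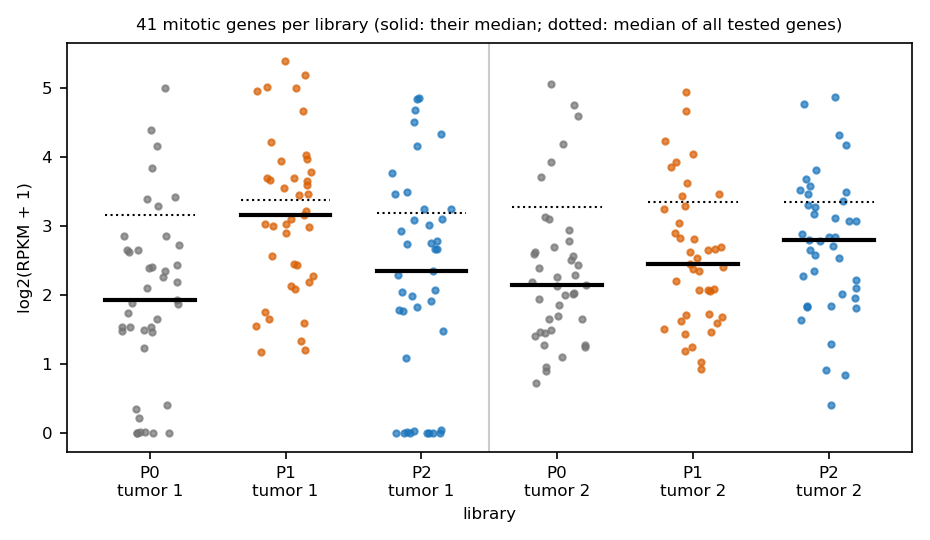
Level of each of the 41 mitotic genes (points, log2(RPKM + 1)) in the 6 libraries, grouped by tumor and coloured by population. The solid line is the median of the 41 genes and the dotted line that of all tested genes; the solid line lies below the dotted one in every library and comes nearest to it in P1 of tumor 1.

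Some mitotic genes were without reads in tumor 1. *Aurka*, *Bub1*, *Kif4* and *Ndc80* had no reads in P0 (9.76% of the 41 genes, against 12.1% of tested genes), and *Bub1*, *Ccnb2*, *Ncapd2*, *Ndc80*, *Nuf2*, *Tpx2* and *Ttk* had none in P2 (17.1%, against 15.9%). A count of 0 there allows up to 3 reads, which for *Ndc80* is 0.0376 RPKM in P0 and 0.0573 in P2, by counting error alone. P1 of tumor 1 and all libraries of tumor 2 had reads for every one of the 41 genes. The rank order of the 41 genes was shared more closely among the libraries of tumor 2 (Spearman's rho 0.847 to 0.905 between pairs, over 41 genes that share libraries and are no replicates) than among those of tumor 1 (0.402 to 0.605). Over all tested genes the same pairs gave 0.927 to 0.944 and 0.791 to 0.835.

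**Figure D4:**
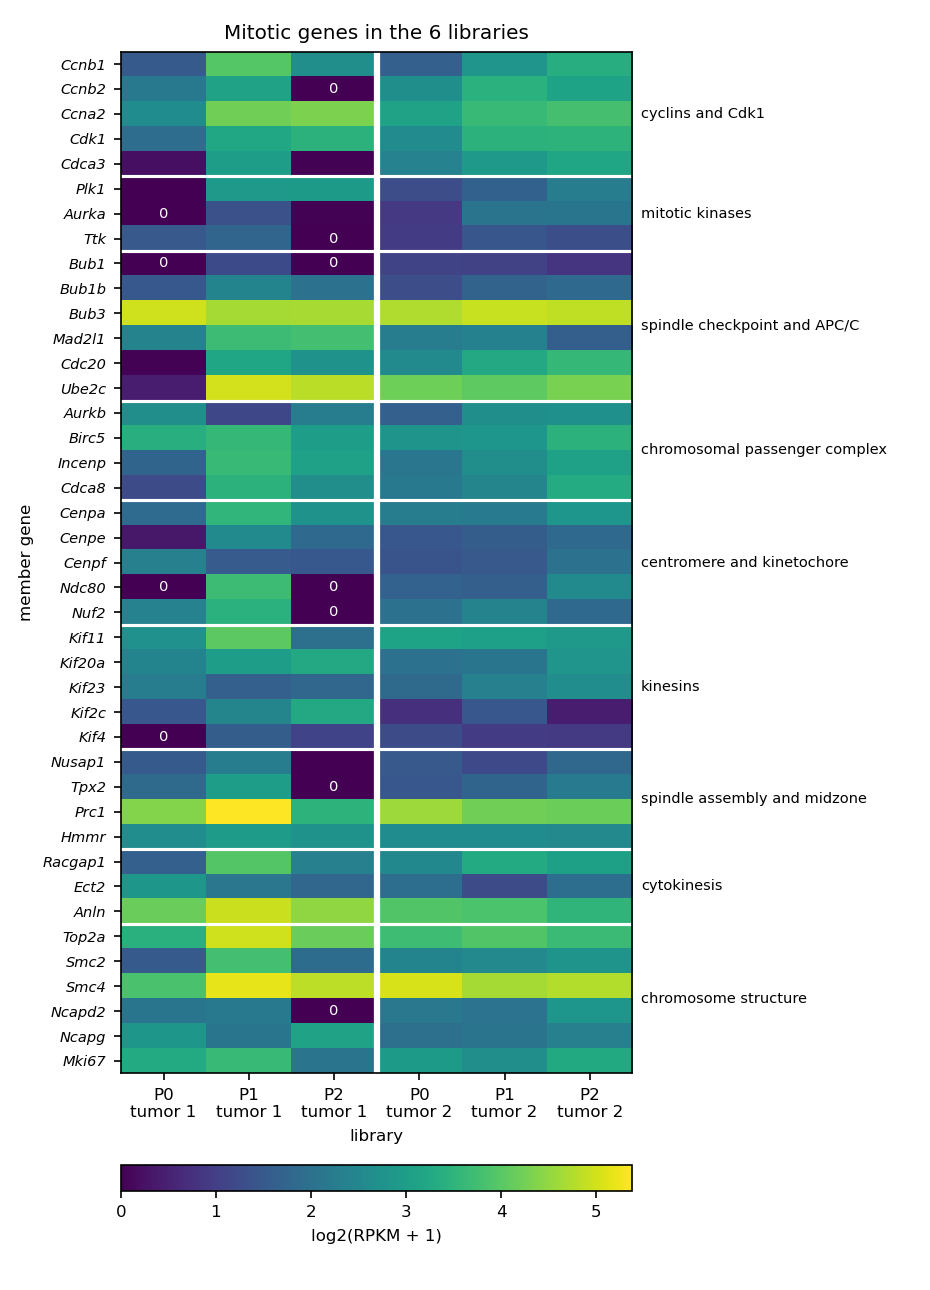
Heat map of log2(RPKM + 1) (colour scale) for the 41 mitotic genes (rows, by role) in the 6 libraries (columns, by tumor); a white 0 marks a gene without reads. *Prc1*, *Bub3*, *Smc4*, *Anln* and *Top2a* are bright in most columns, and all marks of 0 stand in P0 and P2 of tumor 1.

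In P1 against P0, the mitotic genes lay higher in the CD29hi CD61+ cells, with a median difference over the 41 genes of 0.69 in log2(RPKM + 1), against 0.12 over all tested genes. The size came mainly from tumor 1, where the median was 1.20 (all tested genes 0.15), while in tumor 2 it was 0.12 (0.04). Of the 41 genes, 23 (56.1%) were higher in P1 of both tumors, against 29.2% of tested genes, and *Ect2* alone (2.44%, against 17.6%) was lower in both. No single gene passed the test: limma gave 0 of 41 mitotic genes and 0% of 12512 genes an adjusted p under 0.05, and the lowest adjusted p among the 41 was 1.00. At an unadjusted p under 0.05 there were 2 mitotic genes, *Ccnb1* and *Racgap1* (4.88%, against 1.89% of tested genes), and 3 with the tumor as a block (3.43% of tested genes). Limma voom on reads recovered from the RPKM values also called 0 of the 41 after adjustment (0.0719% of tested genes, and 0.032% with the block), with 7 at an unadjusted p under 0.05 (background 4.38%). The remaining 17 of the 41 (49.9% of tested genes) went opposite ways in the tumors. Without P1 of tumor 1 the median difference was 0.31.

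In P2 against P0, the median difference over the 41 genes was 0.36, against 0.00 over all tested genes, and here tumor 2 was the larger with 0.43 (0.05) and tumor 1 the smaller with 0.25 (0.00). Of the 41 genes, 16 (39%) were higher in P2 of both tumors, against 24.5% of tested genes, and *Kif11*, *Nuf2* and *Prc1* (7.32%, against 22.9%) were lower in both. Limma called 0 of the 41 and 0% of 12512 genes at an adjusted p under 0.05, the lowest adjusted p among the 41 being 0.985. *Ccna2*, *Cdk1* and *Plk1* had an unadjusted p under 0.05 (7.32%, against 3.91% of tested genes), 5 genes did with the tumor as a block (background 6.13%), and 2 did with voom (4.65%). After adjustment the block called 0.024% of tested genes, voom 0.00799% and voom with the block 0.048%, and 0 of the 41 were among them. Opposite directions in the tumors were seen for 20 of the 41 (45.3% of tested genes). Both comparisons were made with the same P0 libraries. Without P2 of tumor 2 the median was 0.14, without P0 of tumor 1 it was 0.19 and without P2 of tumor 1 it was 0.56.

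Between the BCSC populations, the tumors went apart. The median of P1 against P2 was 0.23 over the 41 genes and 0.11 over all tested genes, from 0.58 in tumor 1 and -0.25 in tumor 2. P1 had the highest level of the 3 populations for 29 of the 41 genes in tumor 1 (39.7% of tested genes), whereas P2 had it for 26 of the 41 in tumor 2 (35.5%). Of the 41, 11 (26.8%, against 31% of tested genes) were higher in P1 of both tumors, 7 (17.1%, against 21.5%) were lower in both, and 23 (56.1%, against 43.9%) went opposite ways. Limma called 0 of the 41 and 0% of 12512 genes at an adjusted p under 0.05, and *Nuf2* was the 1 gene at an unadjusted p under 0.05 (2.44%, against 2.49%), as it was with the block (4.49%). Voom called 0 of the 41 after adjustment (0.0559% of tested genes, and 0.128% with the block) and gave *Kif11* and *Prc1* an unadjusted p under 0.05 (background 3.74%). The median was -0.02 without P1 of tumor 1, 0.08 without P2 of tumor 1 and 0.62 without P1 of tumor 2.

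**Figure D5:**
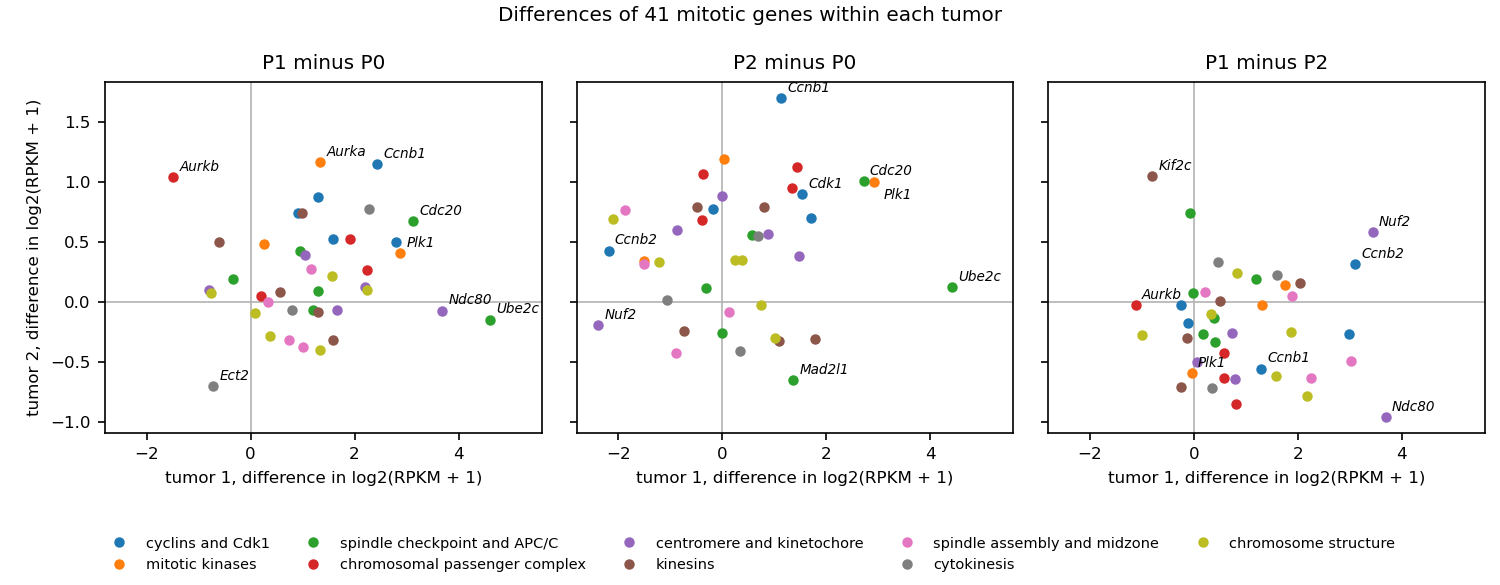
Difference in log2(RPKM + 1) of each of the 41 mitotic genes within tumor 1 (x axis) and within tumor 2 (y axis), for P1 minus P0, P2 minus P0 and P1 minus P2, coloured by role. Points in the upper right quadrant were higher in the first population in both tumors (23, 16 and 11 genes); the x axis spans more than the y axis because differences in tumor 1 were larger, and the 3 panels share libraries.

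All 5 genes of mitotic entry, the cyclins *Ccna2*, *Ccnb1* and *Ccnb2*, their kinase *Cdk1* and *Cdca3*, were higher in P1 than in P0 of both tumors (29.2% of tested genes), with a median difference of 1.09, from 1.59 in tumor 1 and 0.74 in tumor 2. *Ccnb1*, which encodes the cyclin B1 that activates Cdk1 at mitotic entry, was at 1.90 RPKM in P0, 14.6 in P1 and 5.36 in P2 of tumor 1, and at 2.15, 5.98 and 9.25 RPKM in tumor 2. Bulk cells were thus the lowest in both tumors. The ratio of P1 to P0 was 7.69 in tumor 1 and 2.78 in tumor 2, and that of P2 to P0 was 2.82 and 4.30. By limma the difference was 1.79 (SE 0.63, unadjusted p = 0.021, adjusted p = 1.00) in P1 and 1.42 (SE 0.63, unadjusted p = 0.054, adjusted p = 0.985) in P2.

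*Cdk1*, the kinase itself, was at 2.78 RPKM in P0, 8.27 in P1 and 9.97 in P2 of tumor 1, and at 5.02, 10.04 and 10.23 RPKM in tumor 2. *Ccna2*, encoding the cyclin A2 of S phase and G2, was at 5.17, 17.6 and 19.0 RPKM in tumor 1 and at 7.57, 11.3 and 12.9 RPKM in tumor 2. For both genes P0 was the lowest population of each tumor, while P1 and P2 lay close together. The differences in P2 were 1.22 for *Cdk1* (SE 0.52, limma adjusted p = 0.985) and 1.20 for *Ccna2* (SE 0.48, limma adjusted p = 0.985). *Cdca3*, which encodes a protein known in Xenopus as a trigger of mitotic entry that targets Wee1 for degradation, was at 0.167 RPKM in P0, 7.15 in P1 and 0.0283 in P2 of tumor 1 and at 4.25, 6.44 and 7.98 RPKM in tumor 2. In tumor 1 its levels were 9 reads in P0 and 1 read in P2, against 511 in P1. Its difference of P1 from P0 was 2.80 in tumor 1 and 0.50 in tumor 2. *Ccnb2*, the second B-type cyclin, was at 3.55 RPKM in P0 and 7.57 in P1 of tumor 1 and without reads in P2, and at 5.44, 9.77 and 7.67 RPKM in tumor 2. These genes were therefore higher in P1 than in P0 throughout but had no common order for P2, and *Ccnb2* in P1 of tumor 1 was at least 92.4-fold higher than in P2, against the limit of 3 reads in that library.

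The mitotic kinases *Plk1*, *Aurka* and *Ttk* were also higher in P1 than in P0 of both tumors (29.2% of tested genes), with a median difference of 1.25. *Plk1*, the Polo-like kinase of mitotic entry and centrosome maturation, was at 0.0125 RPKM in P0, 6.42 in P1 and 6.62 in P2 of tumor 1, and at 1.42, 2.21 and 3.84 RPKM in tumor 2. P0 was lowest in both tumors, but the level in P0 of tumor 1 was a single read, against 679 and 347 reads in P1 and P2. In tumor 2, the ratio to P0 was 1.55 for P1 and 2.70 for P2. The P2 difference was 1.95 (SE 0.76, limma unadjusted p = 0.033, adjusted p = 0.985). *Aurka*, the Aurora kinase of the spindle poles, had no reads in P0 of tumor 1 and was at 0.868 RPKM in P0 of tumor 2, against 1.53 and 3.20 RPKM in P1. In P2 it was at 0.0203 RPKM, again 1 read, in tumor 1 and at 3.27 RPKM in tumor 2.

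Genes of the spindle checkpoint and the APC/C included *Bub3*, whose level varied least of the 41 genes across the libraries, and genes that were nearly without reads in P0 of tumor 1. Of the 6 genes, 3 were higher than P0 in both tumors in P1 (29.2% of tested genes), and 3 in P2 (24.5%). *Bub3*, a checkpoint protein of kinetochores, was at 30.9 RPKM in P0, 24.4 in P1 and 24.5 in P2 of tumor 1, and at 25.8, 29.7 and 28.2 RPKM in tumor 2. All groups overlapped, and its differences from P0 were -0.07 (SE 0.35) in P1 and -0.10 (SE 0.35) in P2. *Cdc20*, the activator that hands substrates to the APC/C in metaphase, was at 0.0155 RPKM in P0, 7.91 in P1 and 5.68 in P2 of tumor 1 and at 4.93, 8.44 and 10.9 RPKM in tumor 2. P0 was the lowest in both tumors, with 1 read in tumor 1 and 171 in tumor 2, and the ratios to P0 in tumor 2 were 1.71 for P1 and 2.22 for P2. *Ube2c*, the ubiquitin-conjugating enzyme of the APC/C, was at 0.326 RPKM in P0, 31.2 in P1 and 27.5 in P2 of tumor 1 and at 17.2, 15.5 and 18.8 RPKM in tumor 2. Its fitted differences, 2.23 (SE 1.05) in P1 and 2.27 (SE 1.05) in P2, rested on P0 of tumor 1, where it had 11 reads, since within tumor 2 the differences were -0.15 and 0.12. *Bub1b* was higher than P0 in both BCSC populations of both tumors, by 0.42 to 0.96 in log2(RPKM + 1), and *Mad2l1* was higher in P1 of both tumors but in P2 of tumor 1 only.

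In the chromosomal passenger complex, which corrects faulty kinetochore attachments, *Incenp* and *Cdca8* (scaffold and borealin subunits) were higher than P0 in both BCSC populations of both tumors. Their differences were 1.22 and 1.25 in P1 and 1.14 and 1.28 in P2. *Aurkb*, the kinase subunit, was at 5.28 RPKM in P0, 1.24 in P1 and 3.87 in P2 of tumor 1 and at 2.13, 5.44 and 5.55 RPKM in tumor 2. The order of P0 and P1 was thus turned around between the tumors. *Birc5*, which encodes survivin, was at 9.49, 11.04 and 7.06 RPKM in tumor 1 and at 5.85, 6.10 and 10.03 RPKM in tumor 2, and the groups overlapped.

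Centromere and kinetochore genes were mixed. *Cenpa*, the histone H3 variant of centromeres, was at 2.68 RPKM in P0, 10.6 in P1 and 5.74 in P2 of tumor 1 and at 3.81, 3.58 and 6.14 RPKM in tumor 2. P2 was above P0 in both tumors, and P1 was above P0 in tumor 1 only. *Nuf2* and *Ndc80* encode partners in the complex that grips microtubules, yet both were without reads in P2 of tumor 1. *Nuf2* was at 4.24 RPKM in P0 and 9.86 in P1 of that tumor and at 3.06, 4.31 and 2.55 RPKM in P0, P1 and P2 of tumor 2. P2 was lowest in both tumors, and P1 exceeded P2 by 2.01 in a fit that takes the library without reads as 0 RPKM (SE 0.80, limma unadjusted p = 0.034, adjusted p = 1.00). Without P2 of tumor 1 this difference was 1.10, and without P2 of tumor 2 it was 2.93. *Ndc80* was at 11.9 RPKM in P1 of tumor 1, where P0 also had no reads, and at 2.24, 2.08 and 4.99 RPKM in tumor 2. In tumor 1 it was at least 316-fold higher in P1 than in P0 against the limit of 3 reads, while the ratio in tumor 2 was 0.929.

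*Kif11* and *Prc1*, a kinesin and a spindle protein, were with *Nuf2* the genes that were lower in P2 than in P0 of both tumors. *Kif11*, the motor that pushes the spindle poles apart, was at 5.61 RPKM in P0, 15.3 in P1 and 2.95 in P2 of tumor 1 and at 7.75, 7.26 and 6.40 RPKM in tumor 2. *Prc1*, which bundles the microtubules of the spindle midzone, was at 19.8, 40.7 and 10.2 RPKM in tumor 1 and at 23.1, 17.7 and 17.0 RPKM in tumor 2. For both, P2 was the lowest population of each tumor, the differences of P2 from P0 being -0.49 (SE 0.61) and -0.66 (SE 0.49), with limma adjusted p-values of 0.991 and 0.985. Without P2 of tumor 1 these differences were -0.04 and -0.32, and without P2 of tumor 2 they were -0.95 and -1.002. *Kif20a*, the kinesin that carries the passenger complex to the midzone, was at 4.40, 7.01 and 8.46 RPKM in tumor 1 and at 3.03, 3.26 and 5.97 RPKM in tumor 2. P2 was its highest population in both tumors. Of 4 genes of spindle assembly and the midzone, 0 were higher than P0 in P2 of both tumors (24.5% of tested genes). Their median difference from P0 was -0.57, from -1.20 in tumor 1 and 0.12 in tumor 2.

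Cytokinesis genes moved apart from each other. *Racgap1*, a subunit of centralspindlin, was at 2.14 RPKM in P0, 14.3 in P1 and 4.07 in P2 of tumor 1 and at 4.70, 8.76 and 7.37 RPKM in tumor 2. It followed the order P0, P2, P1 in both tumors, and the P1 difference was 1.53 (SE 0.61, limma unadjusted p = 0.035, adjusted p = 1.00); it is described because of that p. *Ect2*, the exchange factor that binds centralspindlin to start furrowing, was at 6.19, 3.37 and 2.43 RPKM in tumor 1 and at 2.84, 1.36 and 2.88 RPKM in tumor 2. P1 was below P0 in both tumors, by a similar -0.72 and -0.70, although P0 of tumor 2 was below P1 of tumor 1. *Anln*, the actin-binding anillin of the furrow, was at 16.8, 30.0 and 21.6 RPKM in tumor 1 and at 14.2, 13.4 and 10.5 RPKM in tumor 2, with no common order.

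Genes of chromosome structure had median differences of 0.26 in P1 and 0.33 in P2. In either comparison 2 of the 6 were higher than P0 in both tumors, against 29.2% of tested genes in P1 and 24.5% in P2. *Mki67*, which encodes the proliferation marker Ki-67, was at 8.74 RPKM in P0, 11.6 in P1 and 3.21 in P2 of tumor 1 and at 6.67, 5.31 and 8.66 RPKM in tumor 2. The order of the populations was reversed between the tumors, and the differences from P0 were 0.05 (SE 0.64) in P1 and -0.44 (SE 0.64) in P2. *Top2a*, the topoisomerase that untangles sister chromatids, was at 9.67, 30.7 and 16.8 RPKM in tumor 1 and at 12.0, 14.1 and 11.8 RPKM in tumor 2. P1 was its highest population in both tumors, with a difference from P0 of 0.90 (SE 0.49, limma adjusted p = 1.00). *Smc4*, a condensin subunit, was at 13.3, 35.2 and 27.8 RPKM in tumor 1 and at 32.3, 24.2 and 26.0 RPKM in tumor 2, so that P0 was lowest in one tumor and highest in the other. *Ncapg*, another condensin subunit, was at 6.19, 3.26 and 7.53 RPKM in tumor 1 and at 2.99, 3.19 and 4.08 RPKM in tumor 2, with P2 highest in both.

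Differences were larger in tumor 1 than in tumor 2, for the mitotic genes as for the rest. In P1 against P0 the SD over the 41 genes was 1.26 in tumor 1 and 0.44 in tumor 2, and over all tested genes it was 1.14 and 0.58. P1 was higher than P0 by at least 1 in log2(RPKM + 1) for 24 of the 41 genes in tumor 1, against 20.7% of tested genes, and for *Aurka*, *Aurkb* and *Ccnb1* in tumor 2, against 4.6%. It was lower by as much for *Aurkb* alone in tumor 1 (8.45% of tested genes) and for 0 of the 41 in tumor 2 (2.12%), so that *Aurkb* reached this size in both tumors with opposite signs. P2 was higher than P0 by at least 1 for 13 genes in tumor 1 (background 16.4%) and for *Aurka*, *Aurkb*, *Ccnb1*, *Cdc20* and *Cdca8* in tumor 2 (5.95%). It was lower by at least 1 for 8 genes in tumor 1 (19.5%, against 17.7%), namely *Ccnb2*, *Ect2*, *Mki67*, *Ncapd2*, *Nuf2*, *Nusap1*, *Tpx2* and *Ttk*, and for 0 of the 41 in tumor 2 (3.04%). *Aurka* and *Ccnb1* were higher by this size in P1 of both tumors, and *Ccnb1*, *Cdc20* and *Cdca8* in P2 of both. P1 exceeded P2 by at least 1 for 16 genes in tumor 1 (22.8%) and for *Kif2c*, a microtubule-depolymerizing kinesin, in tumor 2 (2.98%), and it lay below P2 by as much for *Aurkb* and *Ncapg* in tumor 1 (10.2%) and for 0 of the 41 in tumor 2 (3.19%). The share of genes without reads and the basal and fibroblast marker sums given above also differed between the populations. They did not always follow the order of the mitotic genes, and their part in the differences was not tested. Tumor 2, where every mitotic gene had reads, had 28 of the 41 genes higher in P1 than in P0 (52.8% of tested genes), 30 higher in P2 than in P0 (53.3%) and 14 higher in P1 than in P2 (49.9%).

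Genes with and without the CHR core were set side by side, as a description. In P1 against P0 the 28 genes with a core in the promoter window had a median difference of 0.74, from 1.15 in tumor 1 and 0.15 in tumor 2, and the genes without one had 0.69, from 1.20 and 0.09. In P2 against P0 the medians were 0.33 and 0.15, and in P1 against P2 they were 0.20 and 0.37. *Ccnb1*, without a core, and *Cdk1*, with 2 of them in the stretch shown, were both lowest in P0 of each tumor. *Bub3*, with a core and 2 CCAAT boxes, was at 24.4 to 30.9 RPKM in all libraries.

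Other cell cycle genes, listed by process, gave 0 genes with a limma adjusted p under 0.05 in any comparison, against 0% of tested genes. The counts that follow stand beside shares over all tested genes. In P1 against P0, 29.2% were higher and 17.6% lower in both tumors, and in P2 against P0, 24.5% and 22.9%. Among 67 other mitotic genes tested, 25 were higher in P1 than in P0 of both tumors and 6 were lower in both, with a median difference of 0.37, and in P2 the counts were 15 and 13 with a median of 0.00. The 43 genes of DNA replication and S phase were closer to the 41 mitotic genes in P1, where 25 were higher and 1 was lower in both tumors with a median of 0.54, but not in P2, where 10 were higher and 5 lower with a median of -0.01. *Pcna*, the sliding clamp of DNA polymerase, was at 35.1 RPKM in P0, 72.5 in P1 and 19.5 in P2 of tumor 1 and at 54.1, 66.1 and 57.3 RPKM in tumor 2, highest in P1 of both. The 10 Cdk inhibitors and pocket proteins, which restrain the cycle, had a median of 0.77 in P1, with 6 higher and 0 lower in both tumors. *Cdkn1b*, which encodes the inhibitor p27, was at 10.01, 37.5 and 16.1 RPKM in tumor 1 and at 39.8, 33.4 and 27.7 RPKM in tumor 2, while *Cdkn1a*, encoding p21, was the most abundant of them at 87.9 to 259 RPKM with no common order.

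The 15 genes listed for the APC/C, its subunits and the enzyme *Ube2s* that works with it, had median differences of 0.22 in P1 and 0.30 in P2. In P1, 7 were higher and 1 lower in both tumors (29.2% and 17.6% of tested genes), and in P2, 4 and 5 (24.5% and 22.9%). *Ube2s*, which extends ubiquitin chains on APC/C substrates, was at 72.6 RPKM in P0, 79.8 in P1 and 112 in P2 of tumor 1 and at 66.4, 125 and 114 RPKM in tumor 2, lowest in P0 of both. The next most abundant of the list did not follow it. *Cdc16* was at 69.7, 73.3 and 37.5 RPKM in tumor 1 and at 59.9, 62.1 and 51.3 RPKM in tumor 2, lowest in P2 of both. *Anapc2* was at 45.8 to 61.0 RPKM in all libraries. The 10 cohesin genes, which hold sister chromatids together, had 0.07 in P1 and -0.13 in P2. Against the same shares, 1 was higher and 2 lower in both tumors in P1, and 0 were higher and 2 lower in P2. The 8 G1 cyclins and kinases had -0.17 and 0.08, with *Cdk4* between 112 and 175 RPKM. The 17 transcription regulators of mitotic genes had 0.14 and -0.16. *E2f4*, a subunit of the repressor complex that acts through the CHR in resting cells, was at 58.3 RPKM in P0, 28.4 in P1 and 33.7 in P2 of tumor 1 and at 30.4, 34.5 and 31.0 RPKM in tumor 2, so that P0 and P1 changed places between the tumors.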

How the data were processed

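Poly(A) RNA of 6 sorted populations was sequenced on a HiSeq system, and alignment by the authors used Illumina's usual workflow; the aligner, genome build and annotation are not given in the sources used here. The authors deposited RPKM, reads per gene scaled for its length and for all reads counted in genes, for 14897 genes, of which 8 rows without a symbol were left out. The same table holds the authors' group means of P0 and P1, a normalized signal deposited for these populations, which served only to fix the scale of recovered reads for 838 genes. It also holds the authors' fold change, its log2 value, p-value and adjusted p-value for P1 against P0, which were not used. Whole reads were recovered from the RPKM steps for 100% of genes, with a tolerance of 0.01 reads. Limits for genes without reads are 3 reads and cover counting error only.

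The 12512 genes that reached 1 RPKM in 2 or more libraries were compared on log2(RPKM + 1), which understates the change of low genes, with limma 3.58.1 (R 4.3.3, intensity trend) over all 6 libraries with no block term, and calls were made at 0.05 after Benjamini-Hochberg adjustment. Libraries of a tumor share its number because they come from the same tumor; the deviations of such libraries from their group means had correlations of 0.185 (P0 and P1), 0.211 (P0 and P2) and 0.242 (P1 and P2), and a fit with the tumor as a block was made as well. With 2 tumors that may come from 1 mouse, p-values measure only the spread between the single libraries of these tumors. That spread also holds the steps of sorting and sequencing. The fit with the block leaves out the difference shared by all libraries of a tumor. The procedure was tested on simulated data.

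The genes, the lists and the tests were chosen with earlier results of these data known. Values in every library are given for the highest expressed gene of each role group, for *Mki67*, *Ccnb1*, *Cdk1*, *Plk1*, *Top2a*, *Aurkb*, *Birc5*, *Cdc20* and *Ube2c*, and per comparison for up to 4 genes with the largest difference in each direction that was shared by both tumors; *Racgap1*, *Aurka* and *Ndc80* were added after their values were seen. From the other lists up to 3 genes by mean RPKM could be named. Promoters were taken from RefSeq windows of build GRCm38.p6, which may not be the build of the deposited table; 6 of the 41 genes had no entry. Python 3.11.15 was used with pandas 2.3.3, numpy 2.4.6 and, for plots, matplotlib 3.10.9.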

Additional observations from a re-analysis of the deposited data

How the results depend on the processing

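The number of mitotic genes with an adjusted p under 0.05 was 0 in every comparison under every alternative: a pseudocount of 0.1, no filter, TMM scaling, median-of-ratios scaling, the tumor as a replicate block, voom with and without that block (chosen after seeing the data) and each library left out. In the main fit 0 of all 12512 tested genes passed in any comparison, so that this count cannot set the mitotic genes apart from the rest. The planned count tests on recovered reads were not run, because the deposited values are RPKM. With the tumor as a replicate block the median differences stayed at 0.69 for P1 against P0, at 0.36 for the contrast of P2 with P0 and at 0.23 between the BCSC populations, since the block changes only the error. The median of P1 against P0 was 0.93 with a pseudocount of 0.1, 1.05 with voom and 1.14 with voom and the block, that of P2 with P0 was 0.38, 0.43 and 0.45, and that between the BCSC populations was 0.40, 0.49 and 0.32. Genes at an unadjusted p under 0.05 numbered 3, 5 and 1 with the block and 2, 3 and 1 without, and limma with the block gave 3 genes of the whole table an adjusted p under 0.05 in P2 against P0. The scalings moved the median of all tested genes in P1 against P0 from 0.12 to 0.03 (TMM) and 0.04 (median of ratios), and that of the mitotic genes from 0.69 to 0.62 and 0.63. The genes lower in both tumors in P1 against P0 numbered 2 in place of 1 under TMM scaling and 2 under median-of-ratios scaling. With each library left out in turn, the median of P1 against P0 ranged from 0.31 to 0.97, that of P2 against P0 from 0.14 to 0.56 and that of P1 against P2 from -0.02 to 0.62. In P1 against P2, *Plk1* ranged from -0.92 to 0.29 and *Aurkb* from -1.33 to 0.19, both changing sign. Against P0, *Plk1* ranged from 1.01 to 2.27 in P1 and 1.33 to 2.58 in P2, *Cdc20* from 0.63 to 3.18 and 0.59 to 3.14, and *Ccnb1* from 1.21 to 2.37 and 1.07 to 1.76. *Cdca3* ranged from 0.57 to 2.74 and *Ect2* from -1.16 to -0.26 in P1, and *Ube2c* from 0.38 to 4.16 and *Nuf2* from -2.20 to -0.37 in P2. Counts of genes that go the same way in both tumors cannot be made with a library left out. Tumor 2 alone, added after seeing the data, gave medians of 0.12, 0.43 and -0.25. In the arm left with 1 library, the spread was assumed to be that of the other groups. *Plk1* and *Cdc20* had 1 read each in P0 of tumor 1, a library of 36200687 reads. In P0 of tumor 2, with 19443201 reads, they had 61 and 171. What lies behind the single reads was not tested.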
